A study of Mus musculus with 6 samples.

Results

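The 9 genes described here are those by which amyloid and tau biology is usually introduced: the amyloid precursor gene App with its paralogs Aplp1 and Aplp2, the secretase genes Bace1, Adam10 and Psen2, the tau gene Mapt, and the lipoprotein genes Apoe and Clu. They were taken by symbol from a count table of 56748 genes, and each symbol named 1 row. All 9 passed the filter on low counts, which left 16859 genes to test. RNA was sequenced from the frozen cerebellum of 6 adult C57BL/6J mice aged 90 to 120 days. The 3 mice of the MeHg group were born to dams that drank water with 0.2 ppm methylmercury, an organic mercury compound toxic to neurons, from the first day of pregnancy until birth. The dams of the 3 controls drank water with 0 ppm. The labels give control replicates 1 and 2 and MeHg replicates 1 and 3 as female. They give control replicate 3 and MeHg replicate 2 as male. No genetic alteration is given for either group, the exposure was that of the dam, and the labels name no dam or litter, so the p-values reflect only how these 6 samples vary among themselves.

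APP is a membrane protein that can be cut by alternative routes. Cleavage by ADAM10, the main neuronal alpha-secretase, releases a soluble ectodomain and precludes amyloid-beta, whereas cleavage by BACE1 followed by gamma-secretase, whose catalytic subunit is a presenilin, releases amyloid-beta. Tau, encoded by Mapt, binds axonal microtubules and aggregates in its phosphorylated form. Apolipoprotein E and clusterin are secreted lipid carriers, made in brain largely by glia, and variants of their genes alter the risk of late-onset Alzheimer disease.

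The libraries held 14116088 to 20303833 counts. Markers of the cerebellum were abundant in all of them, with the summed level of 12 granule cell markers at 7568 to 8031 CPM (counts scaled to the effective library size) in controls and 5553 to 6382 CPM in MeHg. Control replicate 2 is labelled female but had 0.249 CPM of Xist and 87.2 CPM of Ddx3y, the levels of a male. By these genes control replicates 2 and 3 and MeHg replicate 2 were male, so sex was not balanced between the groups. The summed level of 12 choroid plexus markers was 159 to 3136 CPM in controls and 2599 to 10256 CPM in MeHg. That of 10 midbrain and brainstem markers was 18.9 to 47.6 CPM in controls and 56.6, 212 and 52.8 CPM in MeHg replicates 1, 2 and 3. All MeHg libraries lay above all controls in this sum, but not in each marker. Tcf7l2 alone was at 6.49, 30.9 and 12.9 CPM in controls and 41.3, 38.5 and 33.2 CPM in MeHg. Tph2 was at 0.556, 67.5 and 1.48 CPM in MeHg, against 0.203 to 0.948 CPM in controls. In bulk tissue, fewer cells of a type and less RNA per cell cannot be told apart.

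The comparison asked whether maternal methylmercury was followed by other levels of these transcripts in the adult cerebellum. None of the 9 genes passed the test at an adjusted p under 0.05 (0 of 9 by the edgeR quasi-likelihood test with Benjamini-Hochberg adjustment over all tested genes, against 2.36% of all tested genes, of which 0.575% were higher and 1.79% lower in MeHg). At an unadjusted p under 0.05 there were 5 of 9, against 24.5% of all tested genes, with Clu, Apoe and Aplp1 higher (3 of 9, against 11.8% of all) and Aplp2 and Mapt lower in MeHg (2 of 9, against 12.7%). DESeq2 called 2 of the 9, Apoe and Clu, where it called 9.02% of all genes it tested, and limma-voom called 0. Without a filter on low counts edgeR called the same 2 genes and 7.38% of all. Without control replicate 2, the library whose sex label went against its RNA, edgeR called 0 of the 9 (6 at an unadjusted p under 0.05). In that setting it called 220 of all 17108 tested genes (4001 at an unadjusted p under 0.05). The groups did not overlap in 5 of the 9 (55.6%), against 29.4% of all tested genes: 3 lay above the controls, where the share of all genes was 13.9%, and 2 below, where it was 15.5%. The largest log2 fold change of the 9 was 0.33, for Clu, and their median was -0.11, beside 0.01 for all tested genes.

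**Figure D1:**
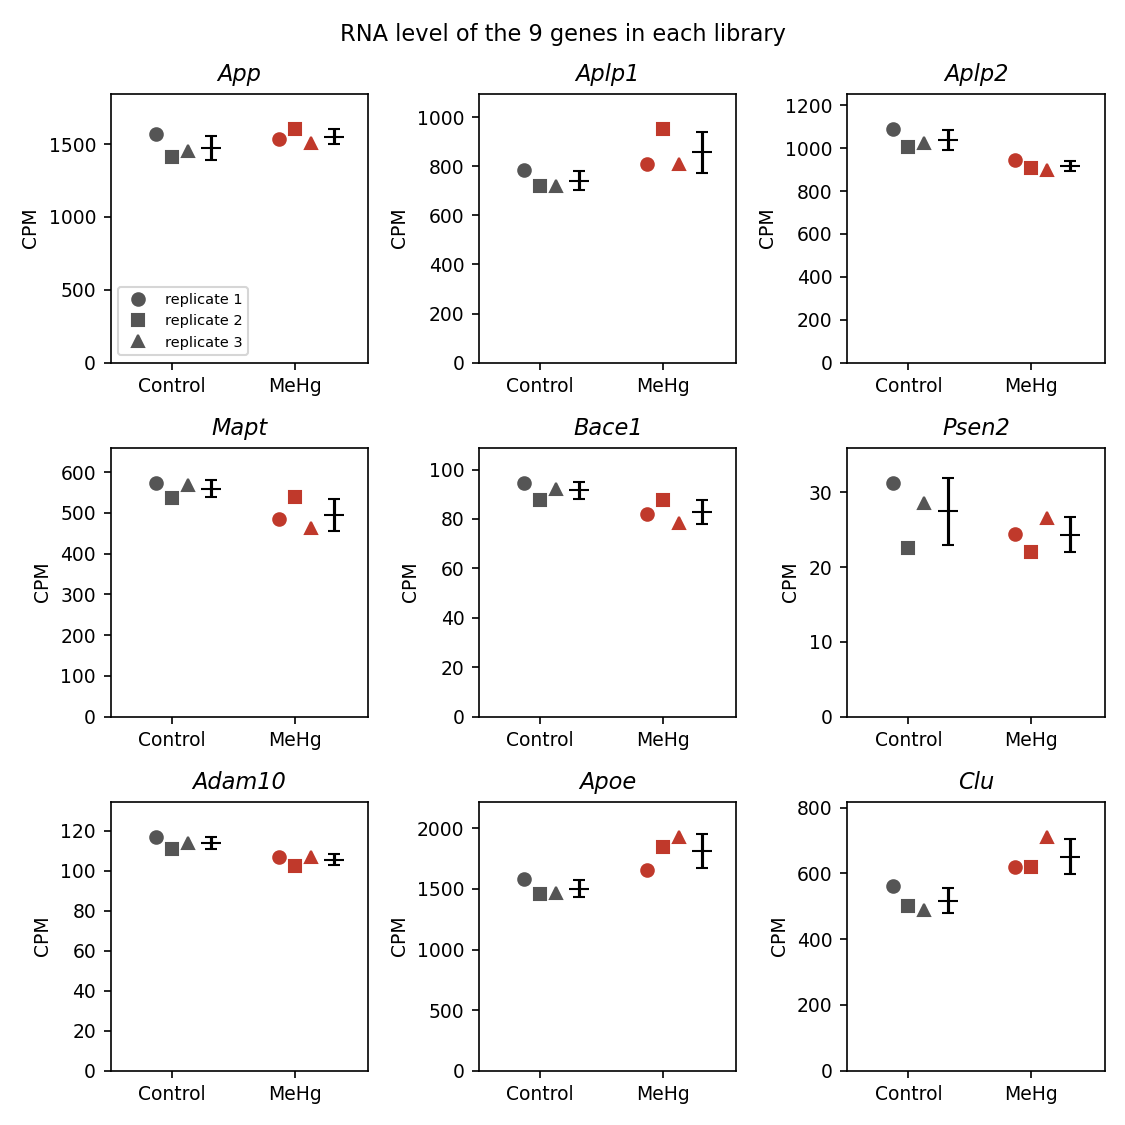
RNA level (CPM, linear axes from 0) of the 9 genes in each library, controls in grey and MeHg in red, with marker shape giving the replicate and the bar at the right the mean ± SD of 3 libraries. Clu, Apoe and Aplp1 lay higher in all 3 MeHg libraries and Aplp2 and Adam10 lower in all 3, while App, Mapt, Bace1 and Psen2 overlapped.

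Per gene length, Apoe was the most abundant of the 9, at a mean of 661 FPKM in controls (fragments scaled by gene length and library total, as deposited), followed by Aplp1 at 231, Aplp2 at 166, Clu at 141, App at 107, Mapt at 69.8, Adam10 at 21.8, Bace1 at 13.6 and Psen2 at 5.96 FPKM. The control libraries of neighbours in this order did not overlap. In MeHg the order of Clu and Aplp2 was the opposite: Clu was at 167 to 195 FPKM and Aplp2 at 143 to 150 FPKM, against 134 to 154 and 160 to 175 FPKM in controls. Levels per length rest on the gene lengths in the deposited table, which for App (12996 bases) is longer than its canonical transcript in GENCODE (8582 bases). With canonical transcript lengths the control means of Aplp1, Clu and Aplp2 were 298, 285 and 281 CPM per kilobase. The place of Clu among them thus depends on the length used. So does the gap between Bace1 and Psen2, whose control means were then 13.9 and 13.8 CPM per kilobase. The canonical transcript of Psen2 has 1997 bases, against a deposited length of 4332 bases.

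App (chromosome 16, 84746573 to 84970654, mm39) encodes the precursor of amyloid-beta. It was at 1568, 1410 and 1449 CPM in control replicates 1, 2 and 3 and at 1538, 1606 and 1508 CPM in MeHg replicates 1, 2 and 3. The groups overlapped, with the lowest values in 2 of the controls. The log2 fold change was 0.07 ± 0.08 (SE, edgeR adjusted p = 0.609), with a 95% confidence interval of -0.10 to 0.24. With loess offsets for gene length and GC content the fold change was 0.16 (edgeR adjusted p = 0.206). The median of all tested genes was then -0.05, beside 0.01 in the main fit. The fold change of App was 0.12 without control replicate 1, 0.04 without control replicate 2 and 0.02 without both libraries numbered 2 (edgeR adjusted p = 0.474, 0.830 and 0.903).

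Aplp1 (chromosome 7, 30134407 to 30144960) encodes a neuronal paralog of APP that lacks the amyloid-beta sequence. It was at 785, 719 and 721 CPM in the controls and 809, 953 and 807 CPM in MeHg. All 3 MeHg libraries lay above the controls, but control replicate 1 and MeHg replicates 1 and 3 were close together and replicate 2 stood above the rest. The log2 fold change was 0.21 ± 0.09 (SE, edgeR adjusted p = 0.189). It was 0.13 without MeHg replicate 2 and 0.03 with offsets for gene length and GC content (edgeR adjusted p = 0.287 and 0.847).

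Aplp2 (chromosome 9, 31060853 to 31123111), the more widely expressed paralog, had a fold change of the other sign. It was at 1091, 1003 and 1022 CPM in controls and 944, 909 and 900 CPM in MeHg, so that every MeHg library was below every control. The log2 fold change was -0.18 ± 0.07 (SE, edgeR adjusted p = 0.168), or 11.6% lower (a fitted fold percent of -11.6). With offsets for length and GC content it was -0.21 (edgeR adjusted p = 0.123).

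Because a ratio of paralogs within a library does not depend on the library total, the make-up of the family was also compared. The shares carry no offset for gene length and GC content, on which a ratio can still depend. With such offsets the log2 fold change was 0.03 for Aplp1, 0.16 for App and -0.21 for Aplp2. The summed level of App, Aplp1 and Aplp2 was 504 ± 25.9 FPKM in controls and 522 ± 24.6 FPKM in MeHg (SD, n = 3 each). App made up 21.2% ± 0.182 of it in controls and 21.3% ± 0.477 in MeHg, a difference of 0.175 percentage points (SE 0.295, two-sided exact permutation p = 0.6, n = 3 against 3). In raw counts, where the long App gene weighs more, its share was 45.0 to 45.5% in controls and 46.3 to 46.9% in MeHg, without overlap, a difference of 1.33 percentage points (SE 0.234, two-sided exact permutation p = 0.1). The share of Aplp1 was 45.9, 46.0 and 45.6% in the controls and 49.0, 53.2 and 49.8% in MeHg. The share of Aplp2 was 32.8, 33.0 and 33.2% in the controls and 29.4, 26.0 and 28.5% in MeHg. Neither pair of groups overlapped. The differences were 4.81 (SE 1.28) and -4.99 (SE 1.01) percentage points, each with a two-sided exact permutation p of 0.1, the smallest that 3 against 3 allows, and 0.15 adjusted over the 3 shares. These 2 shares were singled out after their values were seen.

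The ratio of Aplp1 to Aplp2 FPKM was 1.40, 1.40 and 1.37 in the controls, a mean of 1.39 ± 0.0146 (SD), and 1.67, 2.04 and 1.75 in MeHg, a mean of 1.82 ± 0.197. The highest ratio was in MeHg replicate 2, the library with the most midbrain and brainstem markers. In the ratio and in the marker sum the other MeHg libraries also lay above all controls, but most of their marker sum was Tcf7l2. The part of tissue make-up in this ratio was not tested. With canonical transcript lengths the Aplp1 share was 39.7% ± 0.239 in controls and 44.5% ± 2.19 in MeHg.

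**Figure D2:**
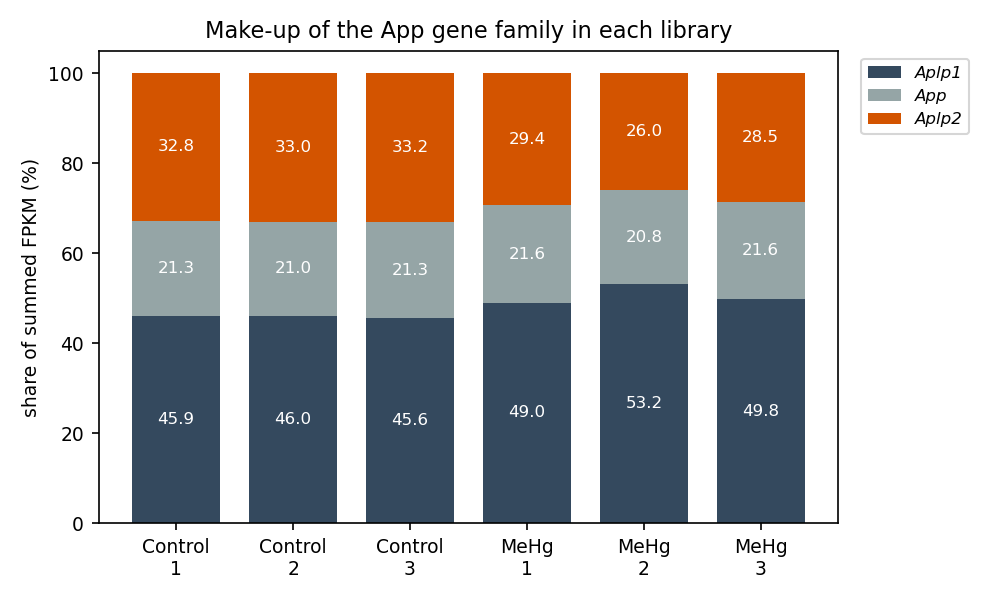
Share (%) of App, Aplp1 and Aplp2 in their summed FPKM, as a stacked bar per library with no error bars. The share of Aplp1 was 45.6 to 46.0% in controls and 49.0 to 53.2% in MeHg, that of Aplp2 was lower in MeHg by about as much, and that of App stayed between 20.8 and 21.6%.

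The windows upstream of genes with fold changes of opposite sign are shown so that their sequences can be compared: those of Aplp1 and Aplp2, the paralogs whose shares differed most, of Adam10, which was lower in all MeHg libraries as Aplp2 was, and of Abca7, the lipid transporter gene described further on. They come from RefSeq promoter windows (GRCm38.p6 table, which holds 6 of the 9 genes), taken as the 250 bases before the start, matched exactly to mm39, and cut to the part outside annotated exons. Capitals mark the GC box GGGCGG, which binds Sp1-type factors, and the E-box CACGTG, each on either strand. GC boxes that overlap by 1 base are counted separately.
Aplp1, chr7:30145103-30145257, minus strand: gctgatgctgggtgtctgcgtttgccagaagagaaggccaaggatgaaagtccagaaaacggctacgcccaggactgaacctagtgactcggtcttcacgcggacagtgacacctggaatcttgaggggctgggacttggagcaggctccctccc
Aplp2, chr9:31123184-31123319, minus strand: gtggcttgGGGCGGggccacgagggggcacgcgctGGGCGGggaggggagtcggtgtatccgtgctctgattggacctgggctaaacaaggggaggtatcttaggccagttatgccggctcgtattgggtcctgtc
Adam10, chr9:70586014-70586220, plus strand: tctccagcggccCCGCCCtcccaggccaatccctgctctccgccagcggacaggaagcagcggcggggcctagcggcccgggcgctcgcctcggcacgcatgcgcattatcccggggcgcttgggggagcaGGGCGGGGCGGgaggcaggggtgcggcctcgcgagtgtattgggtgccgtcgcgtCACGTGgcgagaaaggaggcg
Abca7, chr10:79832078-79832279, plus strand: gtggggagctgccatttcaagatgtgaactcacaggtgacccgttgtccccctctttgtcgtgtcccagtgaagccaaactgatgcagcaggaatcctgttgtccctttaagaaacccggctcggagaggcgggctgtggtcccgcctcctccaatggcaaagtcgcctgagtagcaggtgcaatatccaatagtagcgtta

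The Aplp2 window held 2 GC boxes in 136 bases, where 23.4% of all RefSeq windows cut to the same bases held at least 1. The Adam10 window held 3 in 207 bases, where the share of all windows was 26.0%, and 1 E-box, where it was 4.55%. The Aplp1 window of 155 bases and the Abca7 window of 202 bases held 0 of either motif, as most windows did: 17.4% and 25.0% of windows of the same bases held a GC box, and 3.01% and 4.39% an E-box. Their GC content was 58.1% and 55.0%, beside 64.7% for Aplp2 and 74.4% for Adam10. The RefSeq windows behind the shares were not matched for GC content or trimmed of exons. The windows ended 143 bases before the annotated gene start for Aplp1 and 73, 59 and 49 bases before it for Aplp2, Adam10 and Abca7. The bases nearest to the starts were not searched, and most were left out for Aplp1. A match is a description of the letters in these windows and says nothing of binding.

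Of the 3 secretase genes 0 passed the test with edgeR (0 at an unadjusted p under 0.05), and each 95% confidence interval included 0. All 3 had a negative fold change, as 8249 of the 16859 tested genes did. Adam10 (chromosome 9, 70586279 to 70687511) was at 117, 111 and 114 CPM in controls and 107, 102 and 107 CPM in MeHg. The groups did not overlap, although the log2 fold change was only -0.11 ± 0.06 (SE, edgeR adjusted p = 0.252). Bace1 (chromosome 9, 45749878 to 45775697), the beta-secretase gene, was at 94.7, 87.7 and 92.3 CPM in controls and 82.2, 87.7 and 78.3 CPM in MeHg. Its groups met at the replicates numbered 2, and its log2 fold change was -0.15 ± 0.07 (SE, edgeR adjusted p = 0.214). The ratio of Adam10 to Bace1 FPKM was 1.61 ± 0.0239 in controls and 1.65 ± 0.131 in MeHg (SD, n = 3 each), with MeHg replicate 2 below and MeHg replicates 1 and 3 above all controls.

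Psen2 (chromosome 1, 180054569 to 180091003), encoding a presenilin, was the least abundant of the 9, with 336 to 617 counts per library. It was at 31.3, 22.5 and 28.6 CPM in controls and 24.4, 22.0 and 26.6 CPM in MeHg, and its groups overlapped. The log2 fold change was -0.17 ± 0.13 (SE, edgeR adjusted p = 0.461), with the widest 95% confidence interval of the 9, -0.48 to 0.13. It ranged from -0.30 without control replicate 2 to -0.06 without control replicate 1.

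Mapt (chromosome 11, 104122216 to 104222916) was at 574, 536 and 568 CPM in controls. It was at 484, 538 and 464 CPM in MeHg. MeHg replicates 1 and 3 lay below all controls, and MeHg replicate 2 lay just above control replicate 2. The log2 fold change was -0.18 ± 0.08 (SE, edgeR adjusted p = 0.198). It was -0.23 without MeHg replicate 2 (edgeR adjusted p = 0.0679) and -0.26 without both libraries numbered 2, where the gene passed the test (edgeR adjusted p = 0.0439) with 10.3% of all genes tested. It was -0.13 without MeHg replicate 3, -0.14 with the choroid plexus score as a term and -0.14 with upper-quartile scaling (edgeR adjusted p = 0.426, 0.674 and 0.280). The median of all tested genes was 0.04 with upper-quartile scaling, beside 0.01 in the main fit. Counts per gene do not separate the splice forms of tau.

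Markers of neurons differed between lists. All 12 granule cell markers had a negative fold change, with a median of -0.39 and 6 passing the test, and 9 of 10 Purkinje cell markers had one, with a median of -0.22 and 0 passing (0 by edgeR, 4 at an unadjusted p under 0.05). Pcp2 was the positive one, at 0.06. Of all tested genes 2.36% passed and 24.5% had an unadjusted p under 0.05 with edgeR. The 5 midbrain and brainstem markers that could be tested (the transmitter genes Tph2, Slc5a7 and Th and the factors Lef1 and Tcf7l2) all had a positive fold change, and 0 passed with edgeR (4 at an unadjusted p under 0.05). The transmitter genes were high mainly in MeHg replicate 2, and their groups overlapped. In MeHg replicates 1, 2 and 3 Slc5a7 was at 0.618, 14.7 and 2.09 CPM, against 0.659 to 1.10 CPM in controls. Th was at 10.2, 33.6 and 10.7 CPM, against 7.69 to 11.7 CPM. Lef1 and Tcf7l2 lay above all controls in all MeHg libraries. The summed Purkinje marker level was 8962 to 9906 CPM in controls and 6827 to 8872 CPM in MeHg. No granule or Purkinje cell marker was at 0 in any library. All 10 oligodendrocyte markers had a positive fold change, with a median of 0.31 and 0 passing with edgeR (8 at an unadjusted p under 0.05), and their summed level was 5822 to 6644 CPM in controls and 6648 to 8799 CPM in MeHg. The part of cell make-up in the values of App, Aplp1, Aplp2 and Mapt was not tested.

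Clu (chromosome 14, 66205932 to 66218996) encodes clusterin, an extracellular chaperone of astrocytes, ependyma and choroid plexus, and came nearest to passing of the 9. It was at 561, 502 and 489 CPM in controls and 620, 621 and 712 CPM in MeHg. All 3 MeHg libraries were above all controls, with MeHg replicate 3 the highest. The fitted level was 25.9% higher, a log2 fold change of 0.33 ± 0.09 (SE, edgeR adjusted p = 0.0687), with a 95% confidence interval of 0.14 to 0.53. The gene passed with DESeq2 (adjusted p = 0.00500), with edgeR without a filter on low counts (adjusted p = 0.00305), and with edgeR without MeHg replicate 2 (0.37, adjusted p = 0.0358), where 6.33% of all genes passed. Without control replicate 2 it was 0.31 (edgeR adjusted p = 0.134). With offsets for gene length and GC content the log2 fold change was 0.19 (edgeR adjusted p = 0.207).

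Apoe (chromosome 7, 19430034 to 19433113), the gene of the main lipid carrier of brain and the best known genetic risk factor for late-onset Alzheimer disease, was at 1581, 1460 and 1468 CPM in controls. It was at 1657, 1843 and 1932 CPM in MeHg. The groups did not overlap, and MeHg replicate 1 was nearer to control replicate 1 than to the other MeHg libraries. The fitted level was 20.4% higher, a log2 fold change of 0.27 ± 0.08 (SE, edgeR adjusted p = 0.107). It passed with DESeq2 (adjusted p = 0.0154) and with edgeR without a filter on low counts (adjusted p = 0.0348). With an offset for gene length it was 0.14, and with offsets for length and GC content 0.09 (edgeR adjusted p = 0.297 and 0.506). The median of all tested genes was -0.05 in both settings.

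Markers of the cell types known to make Clu and Apoe differed in sign. Of 12 markers of astrocytes and Bergmann glia, 6 had a positive and 6 a negative fold change, 0 passed with edgeR (5 at an unadjusted p under 0.05), and their summed level was 6550 to 6632 CPM in controls and 6158 to 6432 CPM in MeHg. Of 12 choroid plexus markers all had a positive fold change, with a median of 1.83 and 1 passing. The sums were 3136, 774 and 159 CPM in control replicates 1, 2 and 3 and 4449, 2599 and 10256 CPM in MeHg replicates 1, 2 and 3. The orders matched in part: Clu followed the sums within controls and MeHg replicate 3 was the highest in Clu, Apoe and the sum, but control replicate 1 had more of the markers and less Clu than MeHg replicate 2. Apoe was higher in MeHg replicate 2 than in replicate 1, against the order of their sums, and was lowest in control replicate 2, not in replicate 3. All 8 tested ependymal markers were positive, with a median of 1.31 and 2 passing, and 1 further marker, Mia, was at 0 in 4 libraries. All 10 microglia markers were positive, with a median of 0.27 and 0 passing with edgeR (3 at an unadjusted p under 0.05), and their sum was 145 to 157 CPM in controls and 166 to 200 CPM in MeHg. All 10 endothelial markers were positive, with a median of 0.30 and 1 passing. Of all tested genes 2.36% passed and 24.5% had an unadjusted p under 0.05 with edgeR. With the choroid plexus score (the mean log2 CPM of its markers) as a term in the model, the log2 fold change was 0.19 for Clu and 0.20 for Apoe (edgeR adjusted p = 0.538 and 0.571). The part of the choroid plexus, ependymal, microglia and endothelial markers in the values of Clu and Apoe was otherwise not tested.

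**Figure D3:**
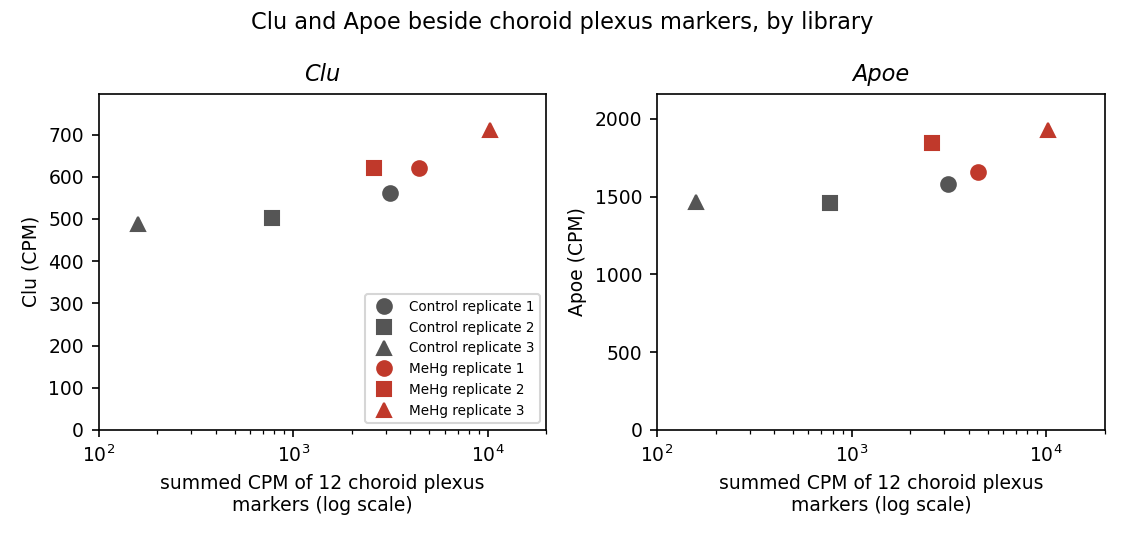
Level of Clu (left) and Apoe (right) in CPM (linear axis from 0) against the summed CPM of 12 choroid plexus markers (log axis) in each library, controls in grey and MeHg in red, marker shape giving the replicate. MeHg replicate 3, with 10256 CPM of the markers, had the highest Clu and Apoe, while control replicate 1 had more of the markers than MeHg replicate 2 (3136 against 2599 CPM) and less of both genes.

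Genes whose log2 CPM followed a member most closely over the 6 libraries were sought among 10525 genes with a mean of at least 10 CPM, as a description, since these points share library, depth and group. For Mapt they were Vps13b, Avl9 and Hcfc1 (Pearson r of 0.997, 0.996 and 0.995), and 183 genes had an r over 0.95. For Clu they were Tspan3, Dph6 and Fkbp9 (0.996, 0.995 and 0.993, with 164 genes over 0.95), and for Apoe they were Snapc5, Cpt1a and Spata13 (0.995, 0.993 and 0.991, with 118). For App they were Tmem126b, Gjb1 and Mrpl38 (0.995, 0.977 and 0.973), and only 10 genes exceeded 0.95.

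**Figure D4:**
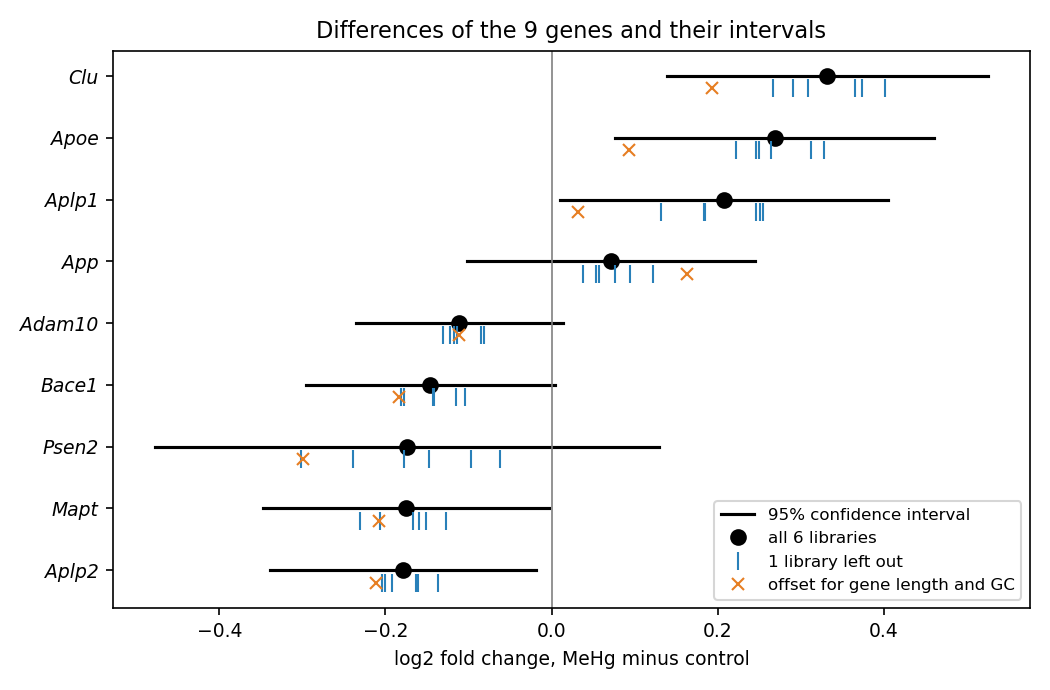
Log2 fold change (MeHg minus control) of the 9 genes from all 6 libraries (black points) with 95% confidence intervals (black lines), the values with each library left out (blue ticks) and with offsets for gene length and GC content (orange crosses). Each gene kept its sign in all of these, and for Clu, Apoe and Aplp1 the crosses lie nearer to 0, at 0.19, 0.09 and 0.03. The median of all tested genes was -0.05 with these offsets and 0.01 without them.

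Beyond the 9 genes, 87 genes of 5 lists around amyloid and tau were followed, of which 85 could be tested. In all, 1 of the 85 (1.18%) passed, and was lower in MeHg, against 2.36% of all tested genes, and their median log2 fold change was -0.01. It was the lipoprotein gene Abca7.

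Abca7, an ATP-binding cassette lipid transporter and Alzheimer disease risk gene (chromosome 10, 79832328 to 79851406), was at 125, 123 and 147 CPM in controls and 102, 97.2 and 96.0 CPM in MeHg. It fell by 0.42 on the log2 scale (SE 0.08, edgeR adjusted p = 0.0431), with all MeHg libraries below all controls. Among 19 other settings it passed in 10. It lost the call without control replicate 1, control replicate 3, MeHg replicate 1 or MeHg replicate 3 (edgeR adjusted p = 0.125, 0.207, 0.0645 and 0.146) and with the choroid plexus score as a term (-0.29, edgeR adjusted p = 0.419). The call was also lost with upper-quartile scaling and with an offset for gene length (edgeR adjusted p = 0.0501 and 0.0515). The same held for limma on log2 FPKM with 1 or 0.1 added (limma adjusted p = 0.0785 and 0.0763).

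The other 10 lipoprotein genes did not pass. Apod, an apolipoprotein of glia, was at 0.28 ± 0.08 (SE), Lpl, a lipase, at 0.73 ± 0.35 and Rxra, a nuclear receptor, at 0.12 ± 0.11. The cholesterol exporter Abca1 was at -0.21 ± 0.07 and the receptor Vldlr at -0.14 ± 0.08. The list median was -0.06.

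Of 12 further secretase subunits and amyloid-degrading enzymes 0 passed with edgeR (5 at an unadjusted p under 0.05, against 24.5% of all tested genes). The list median was -0.05. The lowest p among the negative fold changes were those of the endothelin-converting enzyme Ece1 (-0.23 ± 0.08, SE), the metalloprotease Adam9 (-0.18 ± 0.07) and the insulin-degrading enzyme Ide (-0.17 ± 0.07). Among the positive ones they were those of Mme, which encodes the amyloid-degrading protease neprilysin (1.22 ± 0.42, with a mean of 1.85 CPM in controls and of 4.39 in MeHg), and the gamma-secretase subunits Aph1c (0.42 ± 0.15) and Psenen (0.19 ± 0.09). Mme was at 7.13 CPM in MeHg replicate 2 and the groups overlapped.

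Of 17 genes of APP binding and sorting 0 passed with edgeR (5 at an unadjusted p under 0.05, against 24.5% of all tested genes). All 5 were lower, where the share of all was 12.7%, and the list median was -0.02. Sorl1, a sorting receptor that retrieves APP from endosomes and an Alzheimer disease risk gene, was at 1031, 902 and 1044 CPM in controls and 824, 739 and 698 CPM in MeHg. The groups did not overlap, and the log2 fold change was -0.40 ± 0.09 (SE, edgeR adjusted p = 0.0545). The retromer subunit Vps35 was at -0.18 ± 0.06 and the APP adaptor Apba2 at -0.19 ± 0.07. Positive fold changes were small, with Itm2c at 0.12 ± 0.06, Rtn3 at 0.15 ± 0.11 and Rtn4 at 0.06 ± 0.07.

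Of 24 tau relatives, tau kinases and phosphatases 0 passed with edgeR (3 at an unadjusted p under 0.05, against 24.5% of all tested genes). All 3 were lower, where the share of all was 12.7%, and the list median was -0.01. The kinases Ttbk1 (-0.23 ± 0.07, SE), Dyrk1a (-0.16 ± 0.06) and Mark3 (-0.18 ± 0.07) had the lowest p among the negative values, and the kinase Mark4 (0.14 ± 0.07), the phosphatase subunit Ppp2r2a (0.12 ± 0.07) and the kinase Cdk5 (0.11 ± 0.08) among the positive ones. Of 21 tested other risk genes 0 passed with edgeR (5 at an unadjusted p under 0.05, against 24.5% of all). Their median was 0.06. The RNA-binding protein gene Celf1 was at -0.30 ± 0.07 (SE, edgeR adjusted p = 0.0587), Picalm, a clathrin adaptor gene, at -0.16 ± 0.05 and Fermt2 at -0.10 ± 0.06. The kinase gene Ptk2b was at 0.72 ± 0.22, the peptidase gene Ace at 1.33 ± 0.41 and the microglial receptor gene Trem2 at 0.57 ± 0.24. Ace ranged from 14.5 CPM in control replicate 3 to 117 CPM in MeHg replicate 3, the libraries with the lowest and the highest choroid plexus markers. Trem2 was at 2.73 to 5.04 CPM in controls and 5.69 to 6.74 CPM in MeHg, beside summed microglia markers of 145 to 157 CPM and 166 to 200 CPM. The part of these cell types in the values of Ace and Trem2 was not tested.

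**Figure D5:**
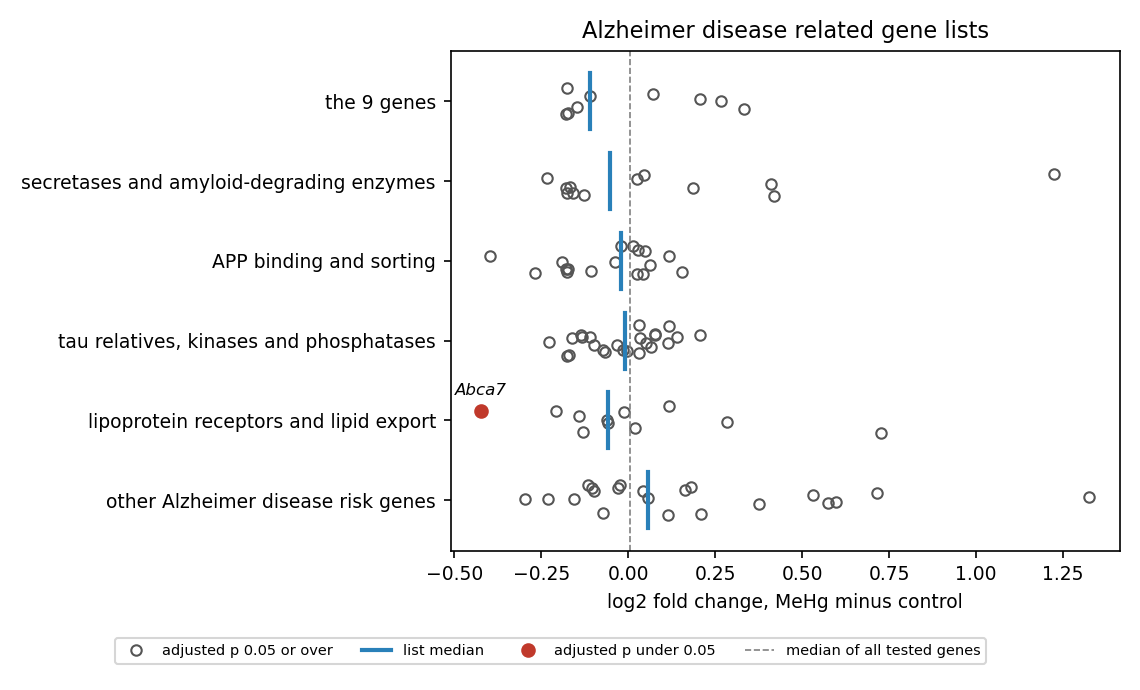
Log2 fold change (MeHg minus control) of each tested gene of the 9 and of the 5 lists, open where the edgeR adjusted p was 0.05 or over and red where it was under, with the list median as a blue line and the median of all tested genes as a dashed line. Abca7 is the 1 red point, and the list medians lie between -0.11 and 0.06.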

How the data were processed

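The deposited counts are unscaled whole numbers, 1 per gene and library. A second deposited table gives FPKM, which the authors made by dividing each count by the length of its gene and by 1 constant per library. Reads were 150-base pairs and the reference mm39, per the labels. Which aligner and counter were used, and whether strand was used, is not given in the sources used here, and 6 of the 9 genes overlap genes on the opposite strand. The submitters' processing notes name DESeq2. The 9 genes and all lists were chosen with earlier results of these data known, and some genes of the lists are not reported here.

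Counts were filtered with filterByExpr, scaled by TMM and tested in edgeR 4.0.16 (R 4.3.3) by its quasi-likelihood method, with group as the only term, over 16859 genes. Calls required a Benjamini-Hochberg adjusted p under 0.05. The SE is the absolute log2 fold change over the square root of F. Named genes are the 9, every called gene of each pathway list, its 3 with the lowest p in each direction, and, for App, Mapt, Apoe and Clu, the 3 genes of highest correlation. Alternatives were other scalings and filters, DESeq2 1.42.0, and limma 3.58.1 on counts and on log2 FPKM (1 or 0.1 added). Labelled sex or replicate number as a term, length offsets and leaving out libraries were also tried. The sex term kept the label of control replicate 2, which its RNA went against. Offsets for length with GC content, the choroid plexus term, canonical lengths and leaving out both libraries numbered 2 were added after the data were seen. The test was tried on simulated data with planted changes. These were all larger than the fold changes of the 9 genes, so the trial does not show how changes of their size fare. No 2 libraries of a group were copies (chi-square per degree of freedom 7.85 to 19.9).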

Additional observations from a re-analysis of the deposited data

How the results depend on the processing

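Each of the 9 genes kept its direction under all 19 alternatives run. Where the main analysis called 0 of the 9, DESeq2 and edgeR without a filter each called 2 (Apoe and Clu), leaving out both libraries numbered 2 called 1 (Mapt), leaving out 1 library at a time called 0 to 1, and the other settings called 0. Of the pathway genes 1 passed, where 2.36% of all tested genes did. The pathway count was 8 without a filter, 6 with DESeq2 and 8 without both libraries numbered 2, where 7.38%, 9.02% and 10.3% of all genes passed. With labelled sex it was 3 and with limma-voom 2, where 609 and 358 of all genes passed. With offsets for length and GC content or with DESeq2 size factors it was 1. It was 0 with upper-quartile scaling, with either log2 FPKM, with a length offset or with the choroid plexus term. With 1 library left out it was 0 to 6, the 6 being without MeHg replicate 2, where 6.33% of all genes passed. Over all genes 398 were called (97 higher, 301 lower). The count was 197 with upper-quartile scaling (78 higher, 119 lower), 2378 without a filter (1200 higher, 1178 lower), 1390 with DESeq2 (542 higher, 848 lower), 609 with labelled sex, 1723 without both libraries numbered 2, and 68 with offsets for length and GC content. It was 0 with limma on either log2 FPKM (3874 and 3887 at an unadjusted p under 0.05), with edgeR and a length offset (4034) or the choroid plexus term (1801), and 0 to 1091 with 1 library left out: among controls, 0 without replicate 1 or 3 and 220 without replicate 2, and among MeHg libraries 2, 1091 and 0 without replicates 1, 2 and 3. With fewer libraries the tests have fewer samples, and otherwise the cause was not tested. With the replicate block 648 genes (258 higher, 390 lower), 2 pathway genes and 0 of the 9 were called. In their deviations from the group mean, same-numbered libraries correlated at 0.187, 0.346 and -0.236, beside -0.431 to 0.358 for the others. Not every library correlated best with its own number. With 3 libraries per group these values cannot decide whether the numbers pair the samples. The difference in the App share was 0.0337 to 0.450 percentage points with 1 library left out, 1.33 from raw counts and 0.491 with canonical lengths. The lowest count among the 9 was 336, for Psen2, whose interval was the widest.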
